A study of Homo sapiens with 74 samples.

Results

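The 36 batch 2 single cells and 2 bulk lamina libraries described here make up 38 of the 74 samples of the series. They are the columns A01 to D10 of a table of autosomal 100 kb bins (build hg38), and they were chosen by their batch label and not by any measured value. The question was how lamina contact varies from cell to cell, over whole chromosomes and between neighbouring bins, and how far the summed cells match the bulk map.

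All samples were HEK293T, a transformed human embryonic kidney line. The batch 2 cells carried DamV133A-tdTomato-LMNB1 with m6A-Tracer-NES. The bulk lamina libraries carried DamV133A-LMNB1 (2 libraries), and 2 bulk libraries of DamV133A alone set the expected counts. From batch 1, 3 cells with DamV133A and m6A-Tracer, and 15 cells with DamV133A-LMNB1 and m6A-Tracer, are used beside them at a few points. Per the protocols in the labels, plasmids were transfected transiently with FuGene HD and the fusion was induced with 1 mM Shield-1 for 20 hours, so each cell may hold a different dose of plasmid. Single cells were processed in chambers of a microfluidic device, and the library kit was NEBNext Ultra II FS for batch 2 and NEBNext Ultra II for batch 1. Batch 2 cells therefore differ from the batch 1 cells in construct, tracer and kit together. From the bulk libraries they differ in construct, tracer and single-cell processing, and the kit of the bulk libraries is not given here. Dam-only cells with the batch 2 construct were not analysed here. The labels name no culture for any cell, so the 36 cells count as 1 sample, no p-value is given across them, and p-values between the bulk libraries measure only a spread that may be technical.

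Lamina-associated domains (LADs) are long stretches of mostly gene-poor, repressed chromatin that lie against the nuclear lamina, the protein meshwork under the inner nuclear membrane. Lamin B1 (LMNB1) is a part of that meshwork. In DNA adenine methyltransferase identification (DamID), the bacterial enzyme Dam is fused to a protein of interest and methylates the adenine of GATC near it, DpnI cuts only the methylated sites, and the released fragments are amplified and sequenced. A sequenced fragment thus records a contact made at some time during induction, and Dam alone marks accessible DNA. In any 1 nucleus only some of the LADs of a cell population are known to touch the lamina.

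Bins were sorted into classes from bulk alone. Bulk DamV133A-LMNB1 exceeded bulk DamV133A in 9849 of 27944 tested bins (edgeR quasi-likelihood test, Benjamini-Hochberg adjusted p under 0.05), called LAD bins here, and lay below it in 10119 bins, called inter-LAD (iLAD) bins. That is 35.2% and 36.2% of the tested bins, 71.5% in either direction, so the classes cover most of the genome and are a map rather than a selection. Scaled to library totals alone, which moved the median over all bins to a log2 ratio of -0.32 from -0.06, the counts were 8132 LAD and 12448 iLAD bins. Without the second DamV133A library they were 9068 and 6635. For each cell, the expected count of a bin is the cell's total times the bin's share of the summed bulk DamV133A libraries, and a bin counts as contacted when the cell has at least the expected number of fragments. In 491 tested bins, all in 9 stretches such as the 179 bins of chromosome 1 from 125200001 to 143100000, each bin repeats the value of the next one in every library, and they were left out of all single-cell values, which leaves 9849 LAD and 10022 iLAD bins.

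The cells were shallow beside bulk. They had between 29323 (cell D09) and 283304 (B07) unique fragments, with a median of 110235.5, against 401916153 to 523429101 coverage counts in the 4 bulk libraries. The median cell had no fragment in 22.6% of bins, with a range of 7.04% to 52.7%. The letter that begins a cell's name moved with depth. Median fragments were 110141 for the 9 cells of letter A, 179408 for 10 of letter B, 106751 for 8 of letter C and 75640 for 9 of letter D. The sources used here do not say what the letter stands for.

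Nearly all batch 2 cells favoured LAD bins, but the strength of the preference varied widely. The LAD contrast of a cell is the log2 of its observed over expected ratio in LAD bins divided by that in iLAD bins, and it had a lowest value of -0.01 (D09), a median of 1.64 and a highest value of 3.31 (B08), with an SD of 0.71 over cells. Of the 36 cells, 33 lay above 1, 13 above 2 and 9 above the summed bulk DamV133A-LMNB1 libraries at 2.08. The 2 bulk lamina libraries were at 2.07 and 2.08 and the 3 Dam-only cells of batch 1 at -0.28, -0.76 and -1.45.

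Cell D09 stood apart, with no preference for the LAD bins called here. Its LAD share, the share of fragments in LAD bins among those in LAD or iLAD bins, was 43.2% (exact Clopper-Pearson 95% interval 42.5 to 43.8), beside 43.9% and 42.9% in the bulk DamV133A libraries. The Dam-only cells of batch 1 had lower shares than D09, at 38.8%, 31.2% and 21.9%. In the authors' control LAD and iLAD bins the contrast of D09 was 0.2, the lowest of the batch 2 cells. The highest cell, B08, had 88.3% (88.2 to 88.5), the median cell 70.5%, and the bulk lamina libraries 76.3% and 76.4%. These intervals cover counting error only. D09 was also the shallowest cell, its correlation with the bulk map over bins was 0.0, and cells D10 and D08 came next with contrasts of 0.56 and 0.75. Values without D09 are given below for the spread of chromosomes, the runs of LAD bins and the blocks of 1 Mb.

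The contrast moved with the letter. Cells of letter B reached the highest values, with 1.22, 2.36 and 3.31 as the lowest, median and highest, and cells of letter D the lowest, with -0.01, 1.00 and 1.59. Letter A spanned 1.29 to 2.70 around 1.74 and letter C 1.03 to 2.00 around 1.70. The ranges of all letters overlapped, although the highest cell of letter D lay below the medians of the other 3 letters. Depth moved with the contrast only in part: over 36 cells the contrast and log2 fragments had Pearson r = 0.42 and Spearman rho = 0.39, and r = 0.26 without the 2 cells farthest from the median depth. Thinned to 10000 fragments a cell, the median contrast was 1.63. The part of the letter in these values was not tested.

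**Figure D1:**
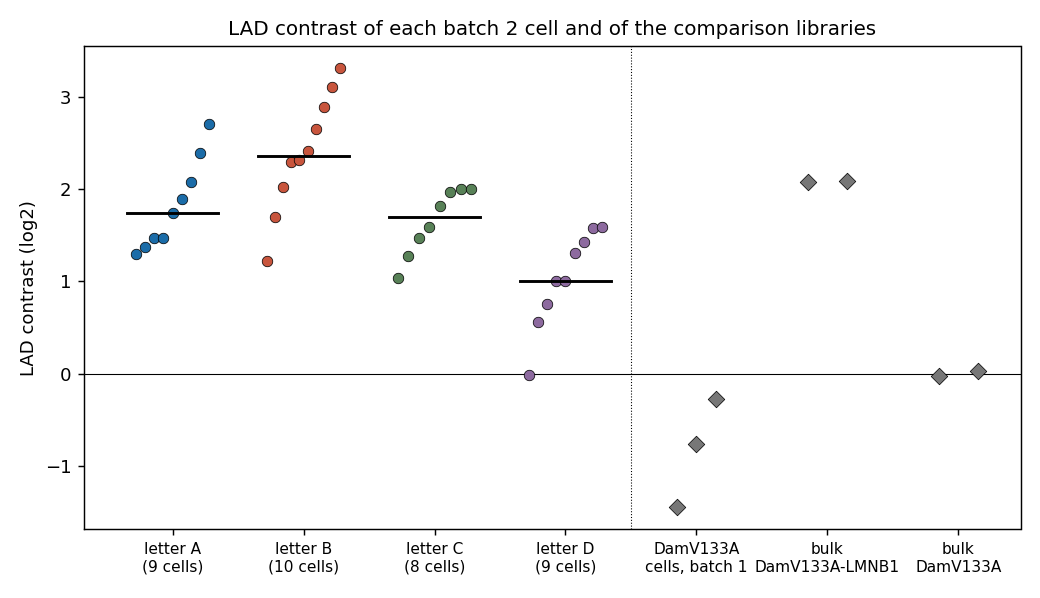
LAD contrast (log2, vertical axis) of each batch 2 cell by the letter of its name, with the 3 Dam-only cells of batch 1, the 2 bulk DamV133A-LMNB1 and the 2 bulk DamV133A libraries to the right. Each point is 1 cell or library and each bar the median of a letter. Medians are 1.74, 2.36, 1.70 and 1.00 for letters A to D, and D09 at -0.01 is the only cell not above 0.

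The share of LAD bins contacted ranged from 37.2% (D09) through a median of 63.4% to 81.7% (B01), and the share of iLAD bins contacted from 6.17% (B06) through 16.1% to 40.2% (D09). The first of these mostly follows depth: LAD contact and log2 fragments had r = 0.90 over the 36 cells. Thinned to 10000 fragments, LAD contact spanned 24.3% to 44.9% with a median of 37.4%, and iLAD contact 7.36% to 30.8% with a median of 16.6%. At equal depth LAD contact followed the contrast of the cell (r = 0.93 over 36 cells, both from the same fragments). Libraries without the lamin fusion also had contacted bins under this rule. The bulk DamV133A libraries, which set the expected counts, had 53.6% and 46.4% of LAD bins contacted. Dam-only cells of batch 1, not thinned, had 36.6%, 28.7% and 19.0% of LAD bins and 48.0%, 46.2% and 52.5% of iLAD bins. The shares are therefore not shares of LADs at the lamina.

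The bins of each gene family lay on the same side of expectation as in bulk in most cells. The lists here are gene families placed by RefSeq gene spans, with 2161 protein-coding genes in LAD bins and 12638 in iLAD bins of bulk. Each value is the log2 of observed over expected fragments summed over the family's bins. Olfactory receptor genes encode odorant receptors silent in most tissues (388 genes in 168 bins, of which 95 are LAD and 37 iLAD bins). They had a lowest, median and highest value of -0.01, 0.53 and 0.86, above 0 in 35 of 36 cells, against 0.19 in bulk lamina libraries. The type 2 UDP-glucuronosyltransferases, liver enzymes that tag steroids and drugs for excretion, fill 8 bins, all of them LAD bins. They had -1.03 (D09), 0.81 and 2.20 (A02), above 0 in 34 cells, against 1.35 in bulk. Genes of GABA-A receptor subunits, the chloride channels of inhibitory synapses, fill 13 bins. They had -0.61, 0.72 and 1.25, above 0 in 31 cells, against 0.50 in bulk. With few bins, the spans of this family and of the glucuronosyltransferases include counting error. All 3 families thus lay above expectation in most cells, although olfactory receptors and GABA-A receptors lay higher in the median cell than in bulk and the glucuronosyltransferases lower.

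2 families of adhesion genes also spanned both sides of expectation. Type II cadherins, a family of cell adhesion proteins, had -1.76 (A02), 0.16 and 1.06 (B05) and were above 0 in only 21 cells, against 0.66 in bulk, although 9 of their 13 bins are LAD bins. The clustered protocadherins, whose combinations give neurons a surface identity (53 genes in 7 bins), had -1.92 (A01), 0.51 and 1.72 (B08), above 0 in 29 cells, against 0.22 in bulk. With so few bins, these spans include counting error.

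Histone, ribosomal protein, proteasome, HOX and zinc finger genes lay below expectation in nearly every cell. Histone genes, which package DNA and lie in gene clusters, had -2.34 (B03), -1.18 and -0.22 (C04), above 0 in 0 cells, against -1.04 in bulk. Genes of cytosolic ribosomal proteins had -2.15, -1.21 and 0.48, and genes of the proteasome, the main protease complex of the cell, -3.17, -1.42 and 0.35. In both families D09 was the 1 cell above 0, and bulk had -0.96 and -1.08. The HOX genes, which set position along the body axis, fill only 9 bins, so their span includes counting error. They had -4.48 (B08), -1.31 and 0.24 (A02), above 0 in 2 cells, against -1.01 in bulk. Zinc finger (ZNF) genes, a large family of mostly repressive transcription factors, were nearest to expectation of these 5, with -1.25, -0.63 and 0.13, against -0.81 in bulk. In the 3 Dam-only cells of batch 1 the order was not that of the batch 2 cells: olfactory receptors had -0.17 to 0.09, ribosomal protein genes 0.07 to 0.74 and histone genes 0.11 to 1.11.

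Whole chromosomes differed in their contact, largely as in bulk. The value of a chromosome is the log2 of its observed over expected fragments, and its medians over the 36 cells followed the summed bulk lamina libraries with r = 0.94 over 22 autosomes. Within single cells the same correlation had a median of 0.84 and a range of -0.74 (D09) to 0.95. Both sides of these correlations share the expected counts.

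Chromosome 4, gene-poor and with 63.3% of its bins called LAD, ranked highest. It had a lowest value of -0.07 (D09), a median of 0.50 and a highest value of 0.98 (A02), above 0 in 35 of 36 cells, against 0.59 in both bulk lamina libraries. Chromosome 5 had -0.45 (A01), 0.25 and 0.69 (A05), against 0.25 in bulk. Chromosome 18 followed with -0.74 (A05), 0.24 and 0.86 (B07), against 0.17 and 0.18. For these 3 the median cell lay within 0.1 of bulk, while single cells lay on both sides of expectation. Chromosome 13 departed from bulk: its median of 0.17, with -0.56 (A02) and 0.63 (B05) as the extremes, stood against 0.53 and 0.54 in the bulk libraries. Chromosome 2 had the same median to 2 decimals, 0.17, with a bulk value of 0.11. Chromosome 13 was not alone in departing from bulk. The log2 of the summed cells minus that of bulk was -0.31 on chromosomes 13 and 17, 0.28 on 20, and 0.23 on 11 and 15. The Dam-only cells of batch 1 were also below expectation on chromosome 13, at -0.3, -0.12 and -0.78. They were above it on 17, at 0.44, 0.41 and 0.76, and on both sides of it on 20, 11 and 15. The cause of these departures was not tested.

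The gene-dense chromosomes 22, 17, 19 and 16 ranked lowest. Chromosome 22 had a lowest value of -2.64 (B08), a median of -1.29 and a highest value of 0.16 (D09), against -1.24 and -1.22 in the bulk lamina libraries. Chromosome 17 had -3.05 (B08), -1.18 and 0.30 (D09), against -0.99 in both bulk libraries. All 4 had their highest value in D09, and 35 of 36 cells lay below 0 on chromosomes 22, 17 and 19. Chromosome 19 had -2.18 (B02), -0.80 and 0.56, against -1.02 in the bulk libraries summed. Chromosome 16 had -2.38 (B07), -0.67 and 0.22, below 0 in 34 cells, against -0.92 in both. These levels moved with the LAD contrast of the cell, with r of -0.83 for chromosome 17, -0.75 for 22 and -0.68 for 19, and -0.24 for 16. Of the highest chromosomes, 13 had r = 0.72, 4 had 0.57, and 5 and 18 had 0.30 each (36 cells each, all values from the same fragments).

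**Figure D2:**
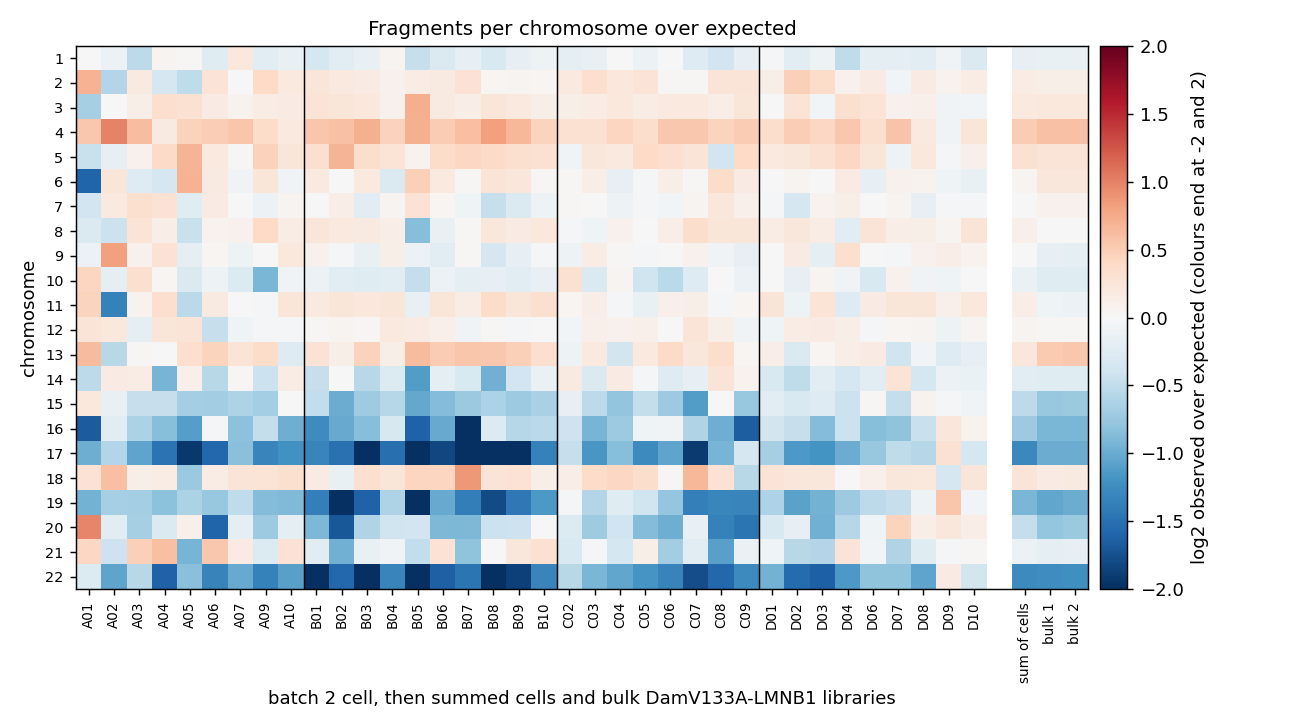
Log2 observed over expected fragments (colour, ending at -2 and 2) for each autosome (rows) in each batch 2 cell (columns, grouped by letter), then in the summed cells and the 2 bulk DamV133A-LMNB1 libraries. Chromosome 4 is above expectation in 35 of 36 cells, chromosomes 17, 19 and 22 are below it in 35, and chromosome 6 in A01 and chromosome 11 in A02 stand out from their rows.

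The spread over cells exceeded counting error on every autosome. The SD over cells ran from 0.144 (chromosome 12) to 0.663 (chromosome 17) with a median of 0.302, which was 6.95 to 19.7 times the SD that Poisson counting gives at these depths. The 2 bulk lamina libraries differed by at most 0.0396 on any autosome. Since these levels moved with the contrast, each cell was also set over its own level in LAD, iLAD and uncalled bins (the class-adjusted level, a choice made after seeing the data). The class-adjusted SD had a median of 0.265 and a range of 0.147 to 0.546. Cells of letter A took a large part of the spread: without them the median unadjusted SD was 0.219, and without D09 it was 0.295. The SD of chromosome 17 was 0.618 without D09.

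Of 792 pairs of a cell and a chromosome, 18 lay more than 2-fold from the cell's own class-adjusted level, 16 of them lower and 2 higher. They fell in 12 cells and on 8 chromosomes. The nearest values inside and outside that limit were 0.99 and 1.04 on the log2 scale. Chromosome 17 had 5 such pairs, chromosome 16 had 4 and chromosome 20 had 3, so most fell on chromosomes with few LAD bins. The class-adjusted median over cells was itself low on chromosomes 17 (-0.40) and 22 (-0.29), against -0.03 on 16 and 0.13 on 20. Low pairs on chromosomes 17 and 22 thus include a shift common to many cells.

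The largest departure was chromosome 6 in A01. This cell had 1261 fragments there, where its own class levels, chromosome 6 included, give 4250. That is a class-adjusted log2 of -1.75, while the next lowest cell on chromosome 6 was at -0.52. The deficit ran along the whole chromosome, with -1.94, -1.78 and -1.63 in its 3 successive parts, and it was present in LAD bins (-1.79) and in iLAD bins (-1.51). In A01, 16.4% of the LAD bins of chromosome 6 were contacted, against 47.7% of all its LAD bins. Chromosome 11 in A02 had 711 fragments against 1760, a log2 of -1.31, with -1.42 in LAD and -1.01 in iLAD bins and -0.49 in the next lowest cell. The opposite case was chromosome 20 in A01, at 2075 fragments against 795, a log2 of 1.38, with 1.80 in LAD and 0.92 in iLAD bins.

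LAD and iLAD bins of 1 chromosome moved together over cells. On the 16 chromosomes with at least 100 bins of each class, the class-adjusted levels of LAD and iLAD bins had r between 0.04 (chromosome 12) and 0.78 (chromosome 6) over the 36 cells, with a median of 0.59, and rho between 0.10 and 0.65. Without A01 and A02, r ran from -0.02 to 0.68 with a median of 0.495 and was above 0 on 15 of the 16. The 2 classes share no fragment, but they share the cell, its depth and its chromosome copies. The spread over chromosomes within 1 cell, class-adjusted, was 0.134 (D01) to 0.688 (A01) with a median of 0.280 in batch 2 cells, against 0.231, 0.253 and 0.286 in the Dam-only cells of batch 1. The 15 DamV133A-LMNB1 cells of batch 1 had 0.165 to 0.836 with a median of 0.257. Dam-only cells thus lay near the median batch 2 cell, and lamina contact, the number of chromosome copies and uneven recovery of DNA from a single cell cannot be told apart in these values.

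At a finer scale, 5 Mb windows far below the level of the cell were rare in most batch 2 cells. Of 19150 pairs of a cell and a window with at least 50 expected fragments, 103 (0.538%) lay more than 4-fold below the cell's class-adjusted level and 34 above it. The low windows fell in 12 cells, and 84 of the 103 in A01, B02, B05, B07 and B08, of which 15 were the chromosome 6 windows of A01. The Dam-only cells of batch 1 had 1, 1 and 0 such windows. The 15 DamV133A-LMNB1 cells of batch 1 had 0 to 98 (cell 012) with a median of 2. Of the 34 high windows, 21 were the window from 120 Mb of chromosome 1, which reaches into the centromere.

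Long runs of LAD bins also varied from cell to cell. In bulk there were 94 unbroken runs of LAD bins of at least 3 Mb. Over cells the median run had a log2 of observed over expected of 0.67, with a median SD of 0.48, 2.84 to 7.79 times the Poisson SD of the run. Of the 3384 pairs of a cell and a run, 29.0% had over 75% of the run's bins contacted, 1.77% under 25%, and 69.2% lay between. These shares depend on depth and on the limit for contact: thinned to 10000 fragments, 0.236% were over 75% and 13.6% under 25%, and with contact at 2 times expected 1.09% and 31.2%. In 4 of the 94 runs every cell was above expectation, and in 13 without D09. The 66 runs of iLAD bins of that length had a median of -1.46 and a median SD of 0.80, with 85.7% of cell and run pairs under 25% contacted.

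The longest run, 13.7 Mb of chromosome 5 (17600001 to 31300000), holds 12 genes, among them the type II cadherins CDH9 and CDH10 and PRDM9, the histone methyltransferase that places meiotic recombination. Cells had -0.04 (D08), 0.80 and 1.39 (B06) as the lowest, median and highest log2 over expected, against 1.17 in the bulk lamina libraries. Its bins were contacted to 34.3% to 90.5%, and 35 of 36 cells were above expectation. The 13.1 Mb run of chromosome 4 (57500001 to 70600000) holds 42 genes, among them the casein genes CSN2 and CSN3 of milk and GNRHR, the receptor for gonadotropin-releasing hormone. It had -0.07 (D09), 0.84 and 1.53 (B05), against 1.14 in bulk.

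The other 3 of the longest LAD runs gave like values. On chromosome 7 (117300001 to 127400000), with CFTR, the chloride channel mutated in cystic fibrosis, and POT1, which caps telomeres, cells had -0.18, 0.69 and 1.49, against 1.10 in bulk. On chromosome 4 (128900001 to 138800000), with 6 genes including PCDH10, they had -0.13, 0.64 and 1.45, against 1.27. On chromosome 12 (79900001 to 89000000), with KITLG, the ligand of the KIT receptor, and the muscle regulators MYF5 and MYF6, they had -0.54, 0.78 and 1.28, against 1.13. In all 5 runs the median cell lay below bulk, the lowest cell carried the letter D, and 34 or 35 cells were above expectation.

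The 5 longest iLAD runs had medians of -1.16 to -1.78 in cells, against -1.22 to -1.38 in bulk, and B08 was the lowest cell in each. On chromosome 22 (18400001 to 34000000), with BCR and the checkpoint kinase gene CHEK2, cells had -3.90, -1.73 and -0.07, against -1.38 in bulk. On chromosome 6 (29700001 to 38300000), with the complement genes C4A and C4B and the cell cycle inhibitor CDKN1A, they had -3.69, -1.78 and 0.44 (D09), against -1.31. On chromosome 12 (106600001 to 118200000), with ALDH2 and ATP2A2, they had -4.33, -1.16 and -0.13, against -1.37. The runs of chromosome 1 (34800001 to 46900000) and chromosome 17 (200001 to 10500000) had medians of -1.57 and -1.51. In 32 to 34 of the 36 cells under 25% of a run's bins were contacted.

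LAD runs with the largest spread over counting error were on chromosomes 13 and 1. The run of chromosome 13 (80500001 to 85200000), with SLITRK1, a neuronal membrane protein, as its 1 gene, had -0.39 (C04), 0.63 and 1.58 (B06) and an SD 7.79 times the Poisson SD, against a level of 1.40 in bulk. All of its bins were contacted in the highest cell and 29.8% in the lowest. The run of chromosome 1 from 185200001 to 193000000, with PTGS2, an enzyme of prostaglandin synthesis, and RGS1, a regulator of G protein signalling, had -1.44 (B05), 0.53 and 1.44 (A06), a ratio of 7.43. Cell B05 stood apart on chromosome 1, with 2.56% of the run's bins contacted, and the next lowest cell was at -0.38 (D09). In B05 the windows of 5 Mb at 185 and 190 Mb had 112 fragments each, where its own levels give 607 and 557.

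The runs with the smallest ratios were on chromosomes 7 and 4. The run of chromosome 4 from 99100001 to 102400000, with the alcohol dehydrogenase genes ADH1A, ADH1B and ADH4, was above expectation in 36 of 36 cells, with 0.33 (D09), 0.82 and 1.71 (A02), a ratio of 2.93, against 0.93 in bulk. The run of chromosome 7 (87200001 to 90200000), with the drug efflux transporter ABCB1, had -0.08, 0.65 and 1.28, a ratio of 2.84. The run of chromosome 4 from 32900001 to 36700000 had -0.32, 0.60 and 1.78, a ratio of 2.97. These 3 runs are 3.0 to 3.8 Mb long and hold fewer fragments than the runs above, which raises the Poisson SD they are divided by.

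**Figure D3:**
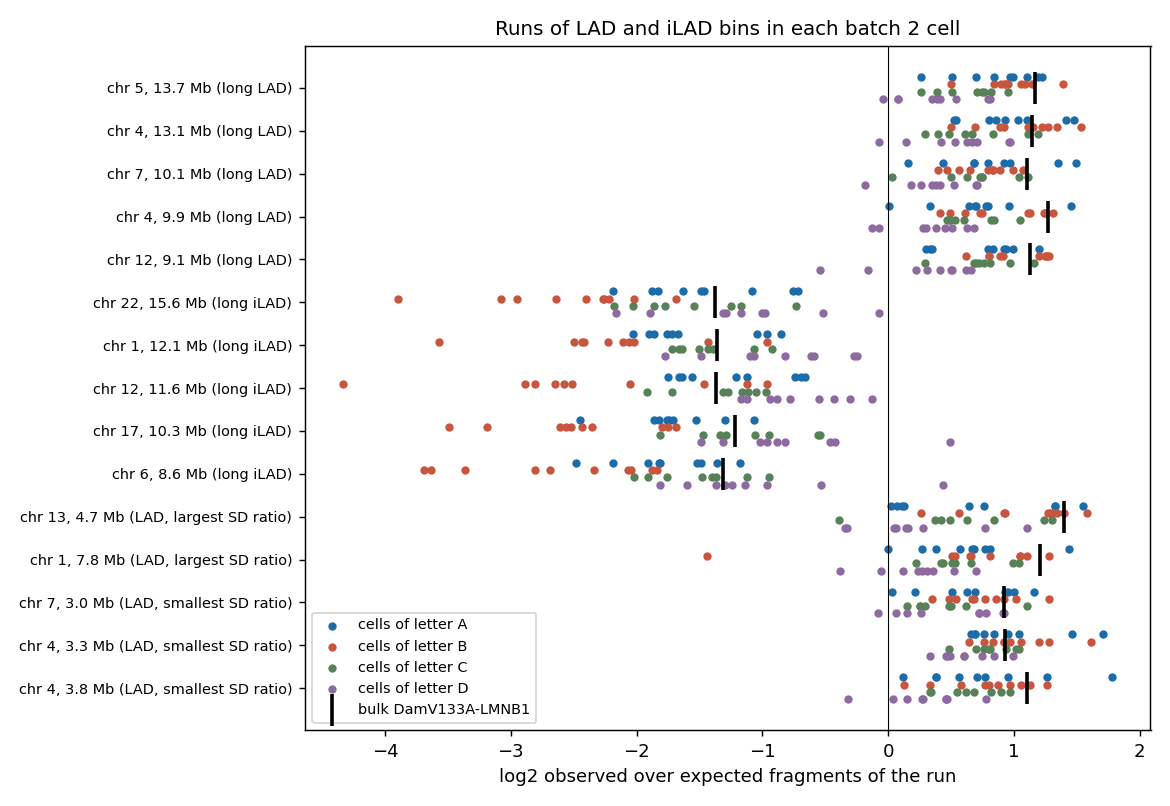
Log2 observed over expected fragments (horizontal axis) of 15 runs of LAD or iLAD bins, 1 point for each batch 2 cell, coloured by letter, and a bar for the summed bulk DamV133A-LMNB1 libraries. Cells spread on both sides of bulk, B08 is the lowest in the 5 long iLAD runs, and B05 lies apart at -1.44 in the LAD run of chromosome 1.

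In every cell, a LAD bin next to a contacted one was itself contacted more often. A LAD bin was contacted in 67.8% of cases when the bin before it was contacted, as the median over cells, and in 55.8% when it was not. The difference within a cell had a lowest value of 2.09 percentage points (D09), a median of 10.2 and a highest of 22.5 (B05), and it was above 0 in 36 of 36 cells. For iLAD bins the shares were 26.8% and 12.8%, with a difference of 4.15 to 30.4 points around 12.3. Thinned to 10000 fragments, the LAD difference had a median of 3.6 points, a range of 0.018 to 11.1, and was above 0 in 36 of 36 cells, in D10 by only 0.018. This measure includes the map common to all cells, since some LAD bins are contacted more often than others.

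To set that common map aside, contact of a bin was correlated over the 36 cells with contact of another bin, each cell centred on its own mean. Adjacent LAD bins had a mean r of 0.0813 over 8650 pairs, bins 1 Mb apart 0.0593 and bins 20 Mb apart 0.0350, against -0.00185 for LAD bins on different chromosomes. Adjacent iLAD bins had 0.0797 and those 20 Mb apart 0.0162. At a few fragments a bin these correlations are weak, they fell to 0.0275 for adjacent LAD bins at 10000 fragments a cell, and they are given as a description only.

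In blocks of 1 Mb, with a median of 60 fragments a cell, co-variation was plainer. Over 661 blocks cut from LAD runs, adjacent blocks of the same run had a mean r of 0.438 over cells, and 96.9% of the 391 pairs were positive. Without D09 the mean was 0.460. Blocks 2 to 4 Mb apart had 0.368 within a run and 0.364 when they lay in different runs, values that hardly differ. The mean r was 0.310 at 5 to 10 Mb, 0.243 at 10 to 30 Mb and 0.138 beyond 30 Mb of the same chromosome, against -0.0183 between chromosomes. Points of a pair share the cell and its depth.

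Part of this was shared by the whole chromosome. With each cell centred on each chromosome, the mean r was 0.270 for adjacent blocks, 0.108 at 5 to 10 Mb and 0.0234 at 10 to 30 Mb. With thinning as well, it was 0.0691 for adjacent blocks, of which 65.0% of pairs were positive, and 0.0157 at 5 to 10 Mb. Centring by itself pushes the most distant blocks below 0, here to -0.0731. Without the cells of letter A, adjacent blocks had 0.354 and those beyond 30 Mb 0.0462. Thinned to 10000 fragments, at a median of 5 fragments a block, adjacent blocks had 0.167, blocks 2 to 4 Mb apart 0.156 in the same run and 0.175 in different runs, and blocks on different chromosomes -0.00874. The order from near to far within a chromosome therefore held at equal depth beyond 5 Mb, but not among the 3 nearest classes.

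**Figure D4:**
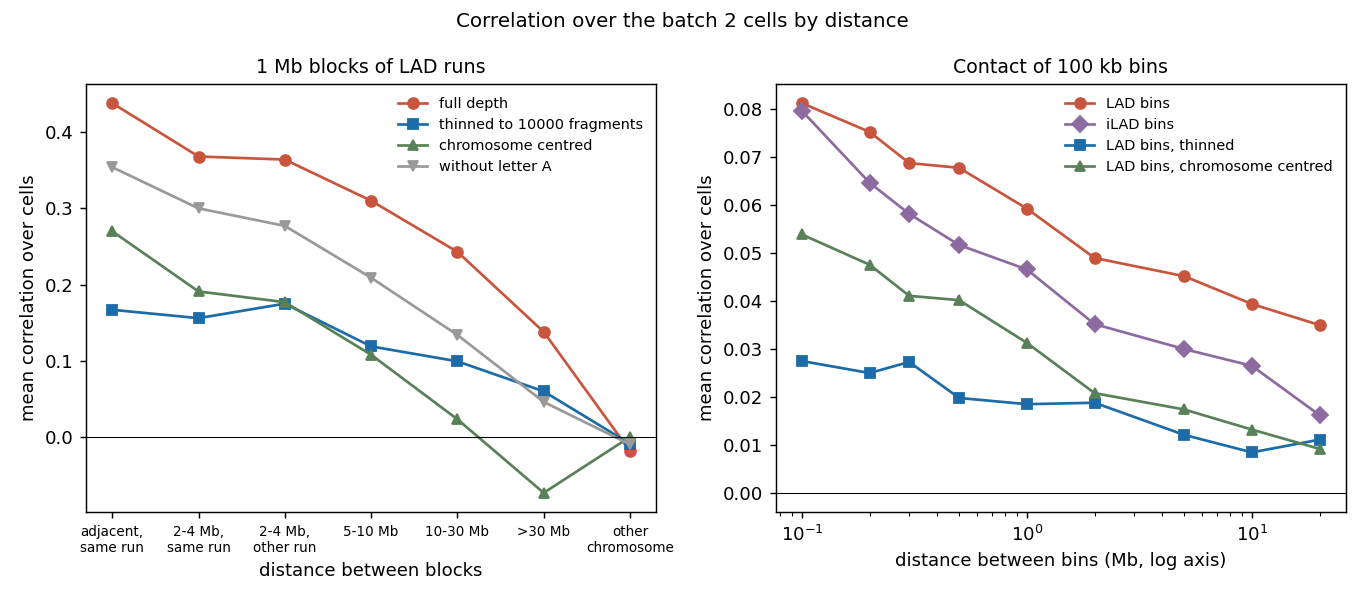
Mean correlation over the 36 batch 2 cells (vertical axis) by distance, for 1 Mb blocks of LAD runs (left) and for contact of 100 kb bins (right, log distance axis), at full depth, thinned, with each cell centred per chromosome and, on the left, without letter A. At full depth the block value is 0.438 for neighbours and -0.0183 for different chromosomes.

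Contacted stretches were short in every cell. Unbroken stretches of contacted LAD bins had a mean length of 0.152 Mb (D09) to 0.410 Mb (B01) with a median of 0.255 Mb over cells, and the longest in a cell was 0.8 Mb (D09) to 6.2 Mb (B01). Runs of LAD bins in bulk, 1199 in number, had a mean of 0.821 Mb and a longest of 13.7 Mb. The lengths follow depth, since 1 empty bin ends a stretch: thinned to 10000 fragments, the mean was 0.128 to 0.181 Mb.

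Some cells resembled each other beyond the mean over cells. Over 2746 windows of 1 Mb, class-adjusted and with the mean over cells taken off, B03 and B08 had r = 0.51, B03 and B09 had 0.49 and B08 and B09 had 0.40. All 145 pairs with the same letter had a median of 0.04 and a lowest value of -0.19, and pairs with different letters a median of -0.06 and a range of -0.30 to 0.22. Thinned and on 100 kb bins, the same 3 pairs led all 630 at 0.077 to 0.098, against a median of -0.021 for pairs with the same letter. Of the pairs of columns, 0 were identical. Windows share the cells' depth, and the sources used here do not say whether these 3 cells share an origin. Their LAD contrasts were high, at 3.10 (B03), 3.31 (B08) and 2.65 (B09), against a median of 1.64 over cells. The part of the contrast in their likeness was not tested.

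The 36 cells summed to 4696984 fragments in the bins used, and the sum recovered the bulk map in part. Across 27453 bins the log2 over expected of the sum, with a pseudocount of 1, followed that of the bulk lamina libraries with Pearson r = 0.749 and Spearman rho = 0.798, against r = 0.913 between the 2 bulk libraries on the same scale. Bins are not independent and both axes share the expected counts. Without expected counts, as log2 CPM with a pseudocount of 1, the sum followed the bulk lamina libraries with r = 0.803 and 0.796 and the bulk DamV133A libraries with 0.379 and 0.367. The sum was thus nearer to either lamina library than to either Dam-only library. Within LAD bins alone r was 0.406 and within iLAD bins 0.177. The classes were cut from the same bulk libraries, which narrows the bulk axis within a class and lowers these values by construction.

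The LAD contrast of the sum was 1.80, against 2.08 in bulk. The bulk value is measured on bins called from those same bulk libraries, which by itself raises it, and this holds for every bulk level in LAD or iLAD bins given here. The median LAD bin was at 0.75 in the sum and 0.88 in bulk, and the median iLAD bin at -1.22 and -1.20. By letter, the sums of 9, 10, 8 and 9 cells for letters A to D followed bulk with r = 0.694, 0.755, 0.692 and 0.496. The 10 cells of letter B, with 1972575 fragments, thus came as near to bulk as all 36 cells.

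The match grew with the number of cells up to 24. Summed in name order, 1, 2, 4, 8, 16 and 24 cells followed bulk with r = 0.302, 0.370, 0.602, 0.696, 0.750 and 0.762, and all 36 with 0.749. Name order starts with shallow cells, A01 with 53448 and A02 with 43116 fragments. At 10000 fragments a cell the 1st cell had 0.224, 8 cells 0.573, 24 cells 0.707 and 36 cells 0.694. In both series the last 12 cells in name order, which include all of letter D, added nothing to r.

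**Figure D5:**
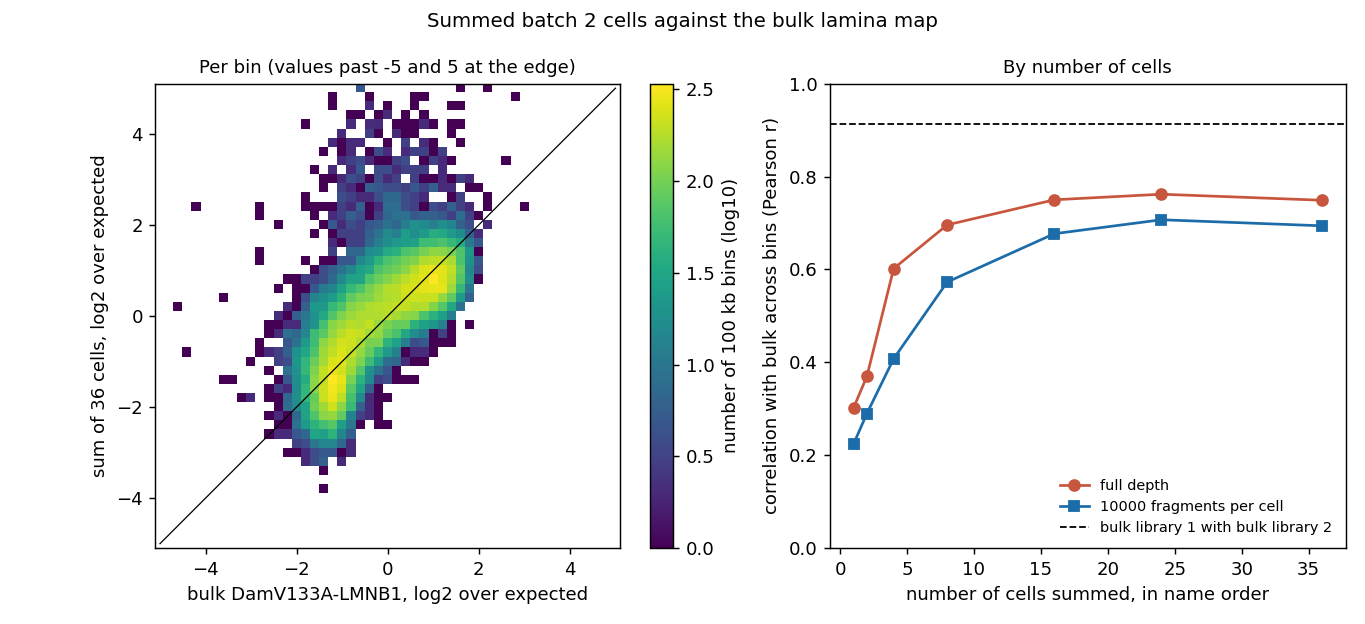
Left, log2 over expected of the 36 summed batch 2 cells (vertical) against bulk DamV133A-LMNB1 (horizontal), as the log10 number of 100 kb bins per square with the line of equality. Right, Pearson r with bulk for growing numbers of cells in name order, at full depth (0.749 at 36 cells) and at 10000 fragments a cell (0.694), with the dashed line at 0.913 for the 2 bulk libraries.

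Bin by bin, sum and bulk were mostly close. Of 26484 bins with at least 50 expected fragments, 88.4% lay within 1 log2 unit of bulk, 95.5% of LAD bins, 84.0% of iLAD bins and 84.8% of uncalled bins. The sum was higher by more than 1 in 2053 bins and lower by more than 1 in 1022. Among LAD bins 116 were higher and 324 lower, and among iLAD bins 998 were higher and 591 lower. LAD and iLAD bins were called from the same bulk libraries that the sum is compared with. That by itself favours the directions seen for these classes, so nothing is read from them. Uncalled bins, which passed in neither direction, were more one-sided, with 939 higher and 107 lower. Their median difference, sum minus bulk, was 0.34, against -0.16 for LAD and 0.0 for iLAD bins. The cause of the shift of uncalled bins was not tested.

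The bins with the largest excess in cells lay at a multi-copy gene and at a centromere. The bin of chromosome 10 from 133600001 to 133700000, with FRG2B, had 443 fragments in the summed cells, where 84.1 were expected, a log2 of 2.38, against -2.77 in bulk, a difference of 5.15. It was contacted in 31 cells and no cell gave more than 6.55% of its fragments. FRG2B belongs to a gene family with near-identical copies, so where its fragments came from is uncertain. The other 4 lie between 122500001 and 123100000 of chromosome 1, at the centromere, with 3.17 to 3.59 in the sum against -0.85 to -1.02 in bulk, and hold no gene. Dam-only cells of batch 1 were high at the same places, with a log2 of 2.78 at FRG2B and 0.99 to 1.88 in the 4 bins of chromosome 1, so these excesses are not limited to the lamin fusion.

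Among the bins with the largest deficit, the bin of chromosome 18 from 11800001 to 11900000, with CHMP1B, of the membrane-cutting ESCRT machinery, and MPPE1, had 99 fragments where 529 were expected, a log2 of -2.41, against 0.03 in bulk. The bin of chromosome 6 from 15300001 to 15400000, with JARID2, a cofactor of Polycomb repression, had 45 where 366 were expected, a log2 of -3.00, against -0.84. A bin of chromosome 2 (8500001 to 8600000), with no gene, had -2.33, against -0.12. In the Dam-only cells the chromosome 18 and chromosome 2 bins were also low, at -3.23 and -3.45 on only 4 and 2 fragments. The JARID2 bin was at 0.52 there, on 46 fragments. The 2 others were a bin of chromosome 16 (28300001 to 28400000) with NPIPB6, of a multi-copy family whose mapping is uncertain, at -3.79 against -1.42, and a LAD bin of chromosome 7 (85000001 to 85100000) at -1.47 against 0.67. Dam-only cells were low in these 2 bins as well, at -2.55 on 1 fragment and -1.58 on 8 fragments.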

How the data were processed

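The authors deposited, in 1 table of 28163 autosomal 100 kb bins (hg38), whole-number counts of unique fragments for each cell, not scaled per the file headers, and whole-number coverage counts for the 4 bulk libraries. The sources used here do not say whether bulk coverage counts reads, read pairs or fragments. A log2 fold change of each bin, deposited by the authors beside them, was not used, and the authors' deposited marks of control LAD and iLAD bins (coded 0 or 1, other than a measurement) served 1 alternative. Tools in the submitters' processing notes, given without roles, include bedtools 2.28, SAMtools 1.9, BWA 0.7.15-r1140 and Trimmomatic 0.39.

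The bulk test used edgeR 4.0.16 under R 4.3.3 (filterByExpr, TMM scaling, quasi-likelihood test), after a check on simulated data; DESeq2 1.42.0 was an alternative. Cells were described with Python 3.11.15, NumPy 2.4.6, pandas 2.3.3 and SciPy 1.17.1, and figures drawn with matplotlib 3.10.9. Expected counts, contact at 1 time expected (2 as alternative) and the pseudocount of 1 are as given in the report. Thinning drew 10000 fragments from each cell without replacement. Bins of a run, block, window or chromosome were summed before taking logs. Leaving out 491 tested bins with repeated values was chosen after seeing the data; the bulk fit keeps them. Gene positions are RefSeq spans on the primary sequence, 18973 protein-coding genes, of which 18954 lie in tested bins.

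Named regions follow a rule: the 4 chromosomes with the highest and the 4 with the lowest median, the 5 longest LAD and iLAD runs, the 3 LAD runs with the largest and the 3 with the smallest ratio of SD to Poisson SD, and the 5 bins with the largest and the 5 with the smallest difference from bulk. Genes named within a region are those with a well-known role. Members, gene lists and tests were chosen with earlier results of these data known. A LAD run that the rule names is not reported here.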

Additional observations from a re-analysis of the deposited data

How the results depend on the processing

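Of 75 values recomputed under an alternative, 66 kept their direction and size and 9 moved. Leaving out 1 bulk library gave 9006 to 9652 LAD and 6635 to 10155 iLAD bins, against 9849 and 10119; the low iLAD counts of 7301 and 6635 came without the first and the second DamV133A library. With the replicate block, although same-numbered libraries share only a number (correlation of their deviations 0.011 over bins), there were 9837 LAD and 10268 iLAD bins. At an unadjusted p under 0.05, 20614 bins passed, and DESeq2 called 10311 LAD and 9805 iLAD bins. The median contrast was 2.45 in the authors' control bins, against 1.64. Thinned to 10000 fragments, the median SD over cells of LAD contact per chromosome was 7.27 percentage points, against 14.2, adjacent LAD bins had a mean r of 0.0275, against 0.0813, and 0.236% of cell and run pairs had over 75% of bins contacted, against 29.0%. Contact at 2 times expected gave 1.09% for the last. No centring gave r = 0.132 for adjacent bins, and it also raised bins on different chromosomes, to 0.0497 from -0.00185. For adjacent 1 Mb blocks, thinning gave 0.167 and chromosome centring 0.270, against 0.438. The cause of each move was not tested, but thinning by construction leaves fewer fragments a bin.

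Blocks, class-adjusted levels, values without D09 or without a letter for chromosomes, contrast and neighbours, and the return of the repeated bins (contrast 1.64, chromosome SD 0.302, r of the sum 0.730) were chosen after seeing the data. Without D09 the contrast was 1.70 and r of the sum 0.750, and without letter D they were 1.97 and 0.765. At a median of 3 fragments a bin in the median cell, contact of a single bin in a single cell carries little weight.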
